A study of Sus scrofa with 5 samples.

Results

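The transcripts described here were those that the deposited table listed at a single one of the outer stages of molar development in the miniature pig. Their members were chosen from the FPKM values themselves (fragments per kilobase of exon, scaled to sequencing depth). A transcript found only at E50 had an FPKM of 1 or more at E50 and was listed at exactly 0 at E60 and E70, and a transcript found only at E70 had 1 or more at E70 and 0 at E50 and E60. This gave 564 transcripts found only at E50 and 432 found only at E70, which is 996 of the 45614 transcripts in the table. By the same rule applied to the middle stage, 12949 transcripts were found only at E60.

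All samples were additional molar germs of wild type miniature pigs, dissected from the mandible together with the dental lamina and pooled by stage before the RNA was sequenced. The stages were embryonic day 50 (E50), embryonic day 60 (E60) and embryonic day 70 (E70). The labels list 1 sample at E50, 1 at E60 and 3 at E70, but the table gives 1 value per stage, so no spread between replicates could be estimated, no test was made and each difference has no replicate check. The paper lists similar totals of clean reads for the stages. For 1 read of each pair, the share that mapped to the WZSP genome was lowest at E50 and highest at E60. For the other read, the shares of the stages were closer together. Whether these shares bear on which transcripts were listed at a single stage was not tested. The table holds no read counts, so the depth behind a single value is unknown. It also holds no gene symbols, so the tissue could not be checked against its defining markers and the transcripts are named by their identifiers and their positions on scaffolds of the Wuzhishan pig (WZSP) genome. In pooled whole germs, fewer cells of a type and less RNA per cell cannot be told apart.

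Molars form in order from front to back, and each starts as a thickening of the lamina, a band of oral epithelium. A tooth germ passes through the bud, cap and bell stages, in which the epithelium folds over the mesenchyme and both tissues differentiate. By the methods of the study, the first molar was at the cap stage at E50, at the early bell stage at E60 and at the late bell stage at E70. In an assembly such as this one, a locus can hold several transcripts that share exons and differ in splicing or ends, and the reads of the locus are divided among them. A transcript listed at 0 is therefore a statement about that exon structure, whereas the sum over the locus describes the output of the gene.

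The value of 0 did not mean the same for every transcript. Cuffdiff marked 1948 transcripts, all at loci with several transcripts, as having too little data or a failed fit in at least 1 comparison. In the 5799 rows marked as too little data, a value above 0 at the later stage was listed in 0 of the 3243 rows whose earlier stage was 0, whereas tested rows of the same kind did list it. A transcript with this mark and with 0 at E50 and E60 could thus not be listed above 0 at E70. Of the transcripts found only at E50, 141 (25.0%) carried the mark, and of those found only at E70, 0 carried it. A further 481 marked transcripts were listed at 0 at all stages. Without the marked transcripts, 423 were found only at E50, beside the 432 found only at E70, and the main E50 values are also given without them.

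Transcripts found only at E50 spanned a very wide range of levels. The lowest FPKM was 1.00246, the median 47.3 (quartiles 2.37 and 2315) and the highest 1290000. In total, 222 (39.4%) lay between 1 and 10 FPKM, and 185 (32.8%) reached 1000 FPKM or more. The marked transcripts made up much of the upper end, since 118 of the 141 reached 1000 FPKM and their median was 4826, against 8.99 for the other 423. In the plot of member levels, the E50 group shows a peak near the minimum and a broader rise above 1000 FPKM.

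Transcripts found only at E70 had a higher median and lower quartile than those found only at E50. The upper quartile at E50 was above that at E70 with the marked transcripts, but without them it was 255 FPKM, and 15.8% of those E50 transcripts reached 1000 FPKM. At E70 the lowest FPKM was 1.03, the median 256 (quartiles 11.5 and 1755) and the highest 9020000. Of the 432, 103 (23.8%) lay between 1 and 10 FPKM and 141 (32.6%) reached 1000 FPKM or more. Among all transcripts of at least 1 FPKM, the medians were 9.94 at E50 and 24.1 at E70. The transcripts found only at E60 had a median of 6.12, and 77 of the 12949 (0.595%) reached 1000 FPKM. Those present at E50 and E70 but at 0 at E60 had a median of 121 at E50, and 14.8% reached 1000 FPKM there. The levels chose the members, so these values are a description.

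**Figure D1:**
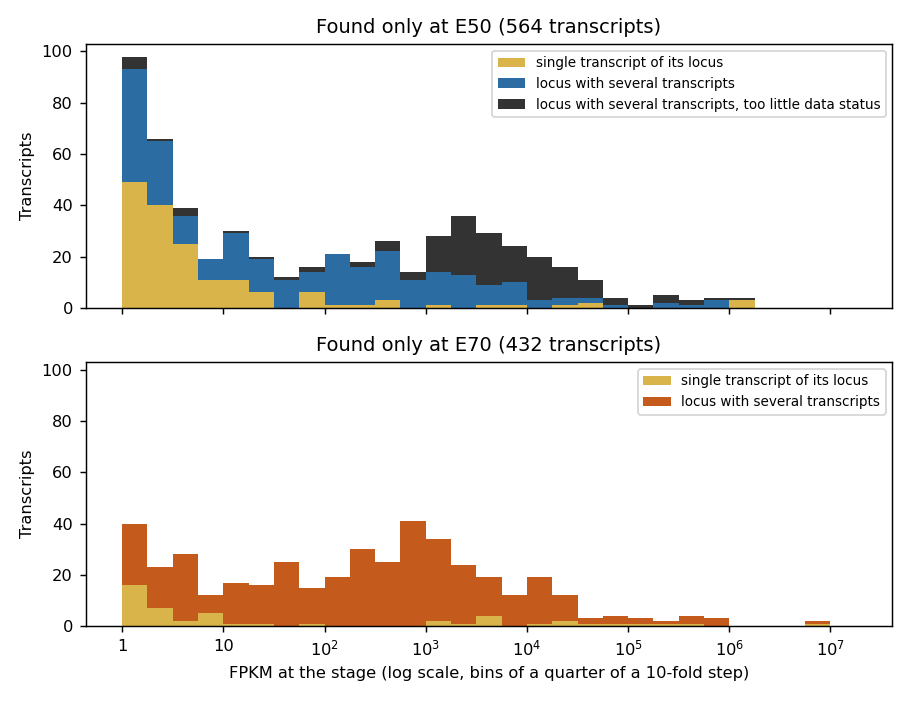
Number of transcripts found only at E50 (upper panel, 564) and only at E70 (lower panel, 432) by their FPKM at that stage on a log scale, with colours for transcripts that are alone at their locus, those at loci with several transcripts and those marked as having too little data. Most transcripts alone at their locus sit at the lower end, and 118 of the 141 marked E50 transcripts are at 1000 FPKM or more.

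The minimum of 1 FPKM separated transcripts of nearly equal level. Just inside it at E50 were TCONS_00261482 (scaffold 1715, 356985 to 381113) at 1.00246 FPKM and TCONS_00553495 (scaffold 3050, 2761 to 14063) at 1.01331, and just outside were TCONS_00071463 at 0.998 and TCONS_00869624 at 0.988. At E70, TCONS_00134841 and TCONS_00507999 were just inside at 1.03, and TCONS_00994182 (0.983) and TCONS_00337692 (0.942) just outside. With no minimum, 944 transcripts were listed above 0 only at E50, with a median FPKM of 1.72, and 632 only at E70, with a median of 16.4.

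How often a transcript was missing elsewhere depended on its level, as the plot of absence by level shows. Of the 12259 transcripts with at least 1 FPKM at E50, 564 (4.60%) were found only there. Of the 11285 with at least 1 FPKM at E70, 432 (3.83%) were found only there, whereas at E60 the share was 41.7% of 31033. Without the marked transcripts the order of the outer stages was the other way round, with 3.63% at E50 and 4.04% at E70. By level, again without the marked transcripts, the share at E50 was 4.06% between 1 and 2 FPKM, 2.46% between 10 and 100 FPKM and 9.75% at 1000 FPKM or more (Wilson 95% confidence interval 7.75% to 12.2%, which covers counting over transcripts only). At E70, the shares in the same bands were 2.57%, 2.42% and 11.5%. Single-stage transcripts were thus most frequent among the most abundant ones at both stages.

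The stages differed in which absence was rare. Among unmarked transcripts with 1000 FPKM or more at E50, 50.8% were listed at 0 at E60 and 16.4% at E70. Between 1 and 2 FPKM the order was the other way round, with 8.78% at 0 at E60 and 34.5% at 0 at E70. The same crossing was seen from E70, where 61.0% of the most abundant transcripts were at 0 at E60 and 20.0% at 0 at E50, against 7.95% and 27.8% between 1 and 2 FPKM. For abundant transcripts, membership was limited mainly by the other outer stage, and for transcripts near the minimum mainly by E60.

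**Figure D2:**
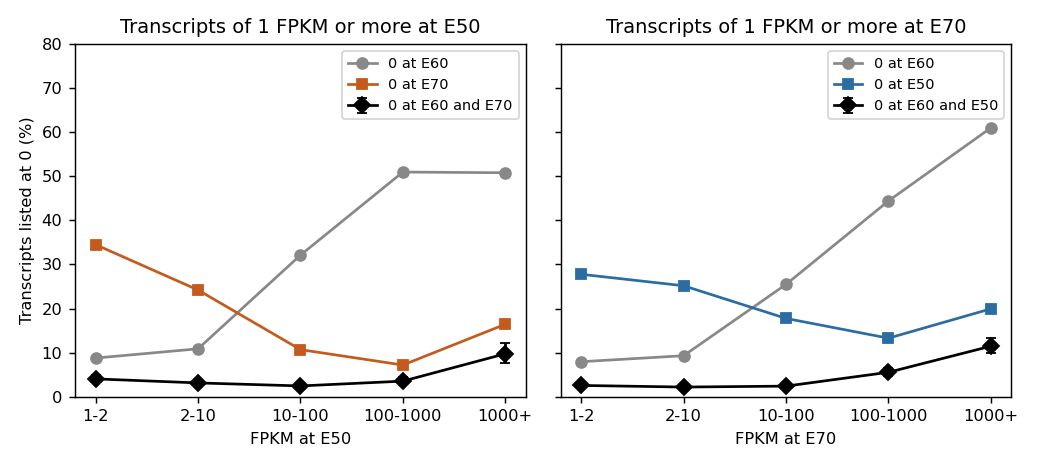
Share of transcripts listed at 0 at E60, at the other outer stage and at both, by FPKM at E50 (left) or E70 (right), without transcripts marked as having too little data. Bars on the black points are Wilson 95% intervals. The share at 0 at E60 climbs from 8.78% to 50.8% along the E50 levels and from 7.95% to 61.0% along the E70 levels.

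A minority of the members came from loci whose whole sum was listed at 0 at the other stages. Of the 564 transcripts found only at E50, 162 (28.7%, Wilson 95% interval 25.1% to 32.6%) were the only transcript of their locus, and 6 more lay at loci whose sum was 0 at E60 and E70. The remaining 396 (70.2%) lay at loci with output from another transcript at another stage. Of the 432 found only at E70, 49 (11.3%, 8.69% to 14.7%) were alone at their locus and 55 of 418 loci (13.2%) had a sum of 0 at E50 and E60, against 167 of 545 loci (30.6%) for the E50 group. Without the marked transcripts, the E50 shares were 38.3% alone and 40.2% of loci at 0. The shares fell with a higher minimum, and at 10 FPKM they were 10.8% alone and 12.0% of loci at 0 for E50 and 5.78% and 7.55% for E70. Among all transcripts of at least 1 FPKM, 12.3% at E50 and 9.46% at E70 were alone at their locus. The loci of transcripts found only at E60 had a sum of 0 at both other stages in 32.4%. By the rule, any such locus at E50 or E70 holds a member. The 167 and 55 loci were thus 2.14% and 0.802% of all loci with a transcript of at least 1 FPKM. At 162 of the 167 and 49 of the 55 the member was alone, so the sum of 0 was set by the selection.

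**Figure D3:**
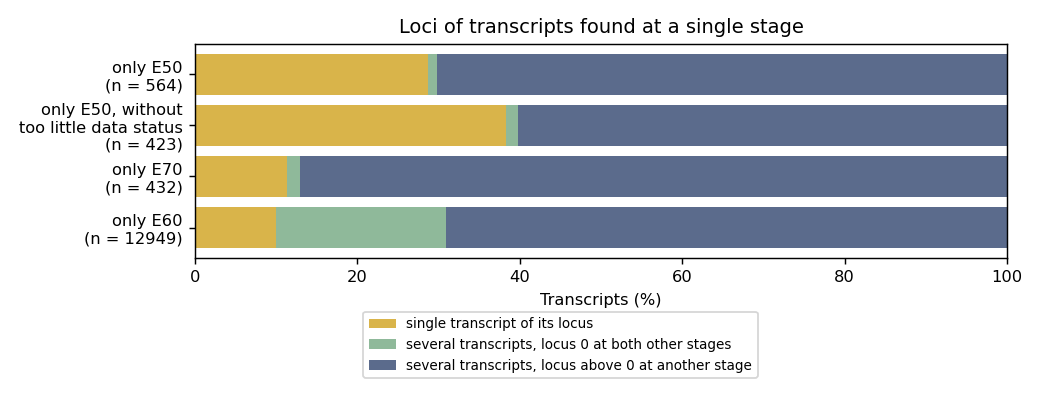
Share of transcripts found at a single stage that were alone at their locus, at a locus with several transcripts and a sum of 0 at both other stages, or at a locus with several transcripts and output at another stage. The bars are for E50 with and without transcripts marked as having too little data, E70 and E60, and the E50 group has the largest share alone at the locus among these bars (28.7% or 38.3%).

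The E50 members alone at their locus were mostly close to the minimum. Their median was 2.61 FPKM (quartiles 1.49 and 8.43), and 9 of 162 reached 1000 FPKM, whereas the members at loci with output elsewhere had a median of 480 FPKM and 175 of 396 reached 1000. Of these 9, 6 had a span of up to 500 bp and 2 a span of 1000 to 5000 bp. TCONS_00176459 (scaffold 14, 4231677 to 4232093) and TCONS_00392346 (scaffold 231, 3713040 to 3713381) each had 1220000 FPKM at E50, and TCONS_00293080 (scaffold 188, 12165434 to 12165636) had 1000000. Their loci spanned 417, 342 and 203 bp. If the exon filled the span, these values would stand for 50.9%, 41.7% and 20.3% of all fragments of the stage, which together is more than the unit allows. Exon lengths and fragment counts are not in the table, so no share of the fragments is read from them.

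Next in level among the E50 transcripts alone at their locus were TCONS_00414510 (scaffold 24, 2089309 to 2089591) with 43721 FPKM and a pair on scaffold 365, TCONS_00650393 with 32001 and TCONS_00650397 with 19915. In the span of up to 500 bp there were 13 E50 members with a median of 426 FPKM. Above 5000 bp there were 67, with a median of 1.98 FPKM and a highest value of 401. The level thus fell as the span rose in these members, and the part of span in their levels was not tested.

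At E70, 16 of the 49 members alone at their locus (32.7%) reached 1000 FPKM, as did 122 of the 376 at loci with output elsewhere (32.4%), and the median of the lone ones was 4.90 FPKM (quartiles 1.63 and 3608). The highest member of all was alone at its locus. TCONS_00642074 (scaffold 36, 2209393 to 2209724, a span of 332 bp) had 9020000 FPKM, which is 10.1% of the FPKM summed over all transcripts at that stage. Over its whole span it would stand for 299% of all fragments, which is also beyond what the unit allows. Below it came TCONS_00679969 (scaffold 39, 12399493 to 12400829) with 411231 FPKM, TCONS_00058296 (scaffold 106, 645180 to 645556) with 180200 and TCONS_00653513 (scaffold 368, 1419052 to 1419561) with 144478. TCONS_00651412 on scaffold 365 had 90596 FPKM and TCONS_00342385 on scaffold 21 had 47652. Of the 8 E70 members with a span of up to 500 bp, 7 reached 1000 FPKM, against 1 of the 15 that spanned over 5000 bp. The level also fell with span in other transcripts alone at their locus, from medians of 72.0 FPKM at E50 and 188 at E70 at up to 500 bp to 0.682 and 0.476 above 5000 bp. At E70, 2 of 13 of these short ones and 9 of 1643 of the long ones reached 1000 FPKM.

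**Figure D4:**
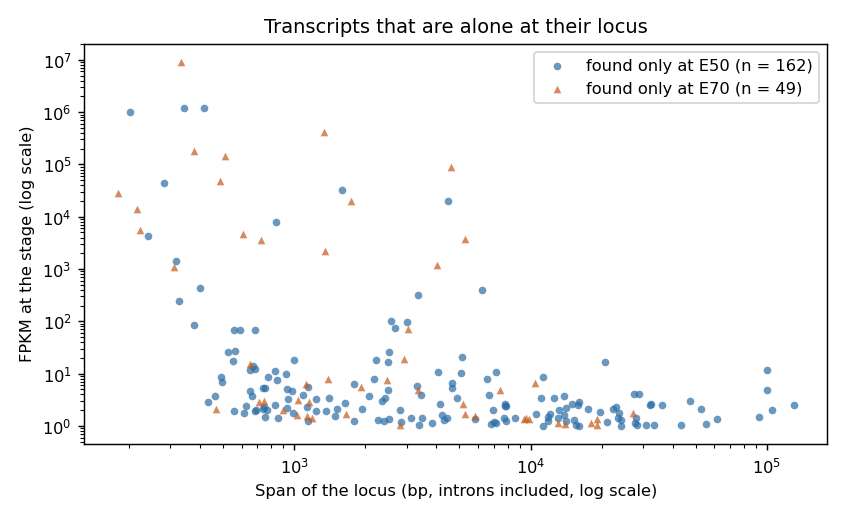
FPKM at the stage against the span of the locus, both on log scales, for transcripts found only at E50 (162, circles) or only at E70 (49, triangles) that are alone at their locus. All values of 1000000 FPKM or more are at spans of 203 to 417 bp, and most points above 5000 bp lie between 1 and 10 FPKM.

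Most members shared their locus with transcripts that were listed above 0 at E60. At loci with several transcripts, 97.8% of the E50 members and 98.2% of the E70 members had such a partner, close to the 97.6% and 97.8% of all transcripts of at least 1 FPKM at these stages. Over all members, including those alone, the shares were 69.7% at E50 (59.6% without the marked transcripts) and 87.0% at E70, beside 85.6% and 88.6% of all transcripts of at least 1 FPKM. A transcript found only at E60 lay at 208 of the 545 E50 loci (38.2%) and at 226 of the 418 E70 loci (54.1%), and the E50 share was 33.7% without the marked transcripts. For all loci with a transcript of at least 1 FPKM, these shares were 47.6% at E50 and 50.4% at E70. A transcript present at E50 and E70 but at 0 at E60 lay at 22.02% of the E50 loci (17.6% without the marked transcripts) and 26.1% of the E70 loci, beside 26.4% and 30.0% of all such loci.

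Within their locus the members were often the main transcript of the stage. At loci with several transcripts, an E50 member held a median of 89.2% of the locus sum at E50 (quartiles 21.1% and 99.9%, and a median of 83.1% without the marked transcripts) and an E70 member 92.0% of the sum at E70 (18.6% and 99.9%). All transcripts of at least 1 FPKM at such loci held medians of 69.3% at E50 and 67.5% at E70, and those found only at E60 held 27.7% at E60. Transcripts present at E50 and E70 but at 0 at E60 held a median of 89.7% at E50, so a large share is not particular to the members. The member was the highest transcript of its locus in 268 of 402 cases (66.7%) at E50 and in 255 of 383 (66.6%) at E70, beside 58.6% and 56.7% of all transcripts of at least 1 FPKM at such loci. At the lower end, 68 E50 members (16.9%) and 82 E70 members (21.4%) held under 10% of their locus, beside 25.4% and 28.6% of all.

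The members with the highest FPKM are given next as single loci. They were picked by level, which favours a large share of the locus sum, so nothing is read from their shares. TCONS_00051492 (scaffold 105, 1622099 to 1638998) had 1290000 FPKM at E50 and 0 at both other stages, and it was marked as having too little data. The 4 other transcripts of its locus had sums of 612, 1078 and 6194 FPKM in stage order. The locus thus had output at all stages, with the E50 output listed almost wholly under the member.

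TCONS_00882207 (scaffold 541, 135921 to 282524) had 815421 FPKM at E50, beside 24.3, 45.9 and 14.6 FPKM of its 3 partners, again in stage order. TCONS_00832185 (scaffold 484, 245557 to 264687) had 720979, beside 54.2, 71.8 and 220 FPKM of 6 partners. TCONS_00755325 (scaffold 436, 4576255 to 4615382) had 719960, beside 15.8, 26.6 and 7649 FPKM of 5 partners. In all 3 loci the partners were listed at every stage, and the level of the member exceeded theirs at E50 by more than 4 orders of magnitude.

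TCONS_00302972 (scaffold 192, 1991260 to 2010946) had 707758 FPKM at E50, and its 1 partner had 198, 238 and 1.03 FPKM. It carried the mark of too little data, as did TCONS_00156887 below. Where the partners peaked at E60, other abundant examples were TCONS_00156887 (scaffold 132, 9451674 to 9505056) with 380852 FPKM and TCONS_00794968 (scaffold 458, 3458206 to 3500804) with 241544. The partner of TCONS_00156887 was listed at E60 alone, at 539 FPKM, and the member was listed at E50 alone. The 3 partners of TCONS_00794968 summed to 1.26, 128 and 0.390 FPKM.

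Several E50 members could come from a single locus. On scaffold 332 (12448467 to 12503330), 4 of 9 transcripts were found only at E50, TCONS_00603336 at 462853 FPKM, TCONS_00603335 at 251667, TCONS_00603334 at 249449 and TCONS_00603338 at 32119, and all 4 were marked as having too little data. The other 5 transcripts summed to 23871, 45.6 and 114864 FPKM at E50, E60 and E70. On scaffold 115 (883060 to 936090), 3 of 7 transcripts were found only at E50, TCONS_00091951 at 28940 FPKM, TCONS_00091946 at 2157 and TCONS_00091941 at 1741. The 4 others of that locus summed to 55.2, 11.3 and 0.0809 FPKM, so this locus as a whole was highest at E50.

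At E70, TCONS_00451489 (scaffold 2543, 396481 to 415334) had 6010000 FPKM, and its 4 partners summed to 554, 51.8 and 397 FPKM. TCONS_00766757 (scaffold 44, 18258857 to 18260243) had 863585, and its partner was listed at 0 at all stages. TCONS_01103700 (scaffold 834, 300086 to 330540) had 707558, beside 390, 66.4 and 492 FPKM of 7 partners. The partners of the first and last of these were lowest at E60.

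TCONS_00233699 (scaffold 161, 11726450 to 11836725) had 495179 FPKM at E70, with partners at 76.9, 34.9 and 249. TCONS_00142387 (scaffold 128, 137302 to 251386) had 455181, with partners at 781, 51.8 and 10366. TCONS_00606188 (scaffold 332, 3926228 to 4004837) had 411980, with partners at 380, 23.0 and 499.7. In these loci too the partners were lowest at E60 of the 3 stages.

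Other E70 members lay at loci whose partners were highest at E60. TCONS_00356232 (scaffold 213, 4035804 to 4077681) had 90494 FPKM at E70 beside partners at 6.81, 17.2 and 2.30, and TCONS_01034058 (scaffold 719, 485945 to 529708) had 80823 beside partners at 13.0, 266 and 1.62. TCONS_00138467 on scaffold 1271 and TCONS_00030284 on scaffold 10 had 27980 and 25647 FPKM, and the sum of their partners at E60 was 34.5 and 22.7. No E70 locus held more than 2 members. On scaffold 60 (402118 to 450819) these were TCONS_00931412 at 25493 FPKM and TCONS_00932146 at 1015, and on scaffold 186 (2368232 to 2475997) TCONS_00288903 at 18614 and TCONS_00288906 at 661.

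The other transcripts of the member loci were compared between stages by locus. At the 20 loci with members of both kinds, a member of one kind is among the others of the other kind, and its values were used by the rule. With members of both kinds left out, the shares higher and lower at E60 given in the next sentences became 47.9% and 39.01% for E50 and 46.5% and 40.2% for E70. All 564 E50 members were 2-fold or more lower at E60 and at E70 on the log2(FPKM + 1) scale by their selection, as were 14.1% and 10.7% of all transcripts. The same held for all 432 E70 members at E60 and E50, beside 14.3% and 11.8% of all transcripts, and nothing is read from these counts. At the 383 E50 loci with several transcripts, the others had median sums of 26.7, 47.3 and 42.3 FPKM in stage order, and 13.6, 34.2 and 23.8 FPKM at the 253 loci left without the marked transcripts. Their sum was 2-fold or more higher at E60 than at E50 at 183 loci (47.8%) and 2-fold or more lower at 149 (38.9%).

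For background, the same was computed over all 6296 loci with several transcripts and at least 1 FPKM at E50, leaving out the highest transcript of each. There the others were higher at E60 at 75.5% and lower at 9.07% of loci. At the 268 loci whose highest transcript was an E50 member, which is the closer comparison, the shares were 63.8% and 22.4%. Further members at these loci are still among the others there, and their values were used by the rule. With all members of both kinds left out, the shares were 64.8% and 21.7% of 267 loci. The partners of E50 members were therefore lower at E60 in a larger share of loci than the background, and higher in a smaller share, by each count.

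The E70 loci gave a similar picture. At 369 loci the others had median sums of 13.0, 36.1 and 22.3 FPKM in the same order, and they were higher at E60 than at E70 at 171 loci (46.3%) and lower at 148 (40.1%). Over all 5792 loci of this kind, with the highest transcript left out, the shares were 71.4% and 13.1%. At the 255 loci whose highest transcript was an E70 member they were 62.0% and 23.9%, and 63.8% and 21.3% of 254 loci with all members of both kinds left out. With the stages scaled to the same median, which multiplies the E50, E60 and E70 values by 1.42, 0.388 and 1.82, the direction among all member loci turned, to 34.7% higher and 48.3% lower at E60 for the E50 group and to 33.3% and 51.8% for the E70 group. After this scaling, the background was 58.2% and 16.3% for E50 and 54.3% and 23.9% for E70, so the member loci still lay below it in the share higher and above it in the share lower. At the loci whose highest transcript was a member, the direction did not turn, with 47.0% higher and 31.3% lower at E60 for E50 and 45.9% and 35.7% for E70. With all members of both kinds left out, these scaled shares were 47.9% and 30.7% for E50 and 47.6% and 33.9% for E70.

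**Figure D5:**
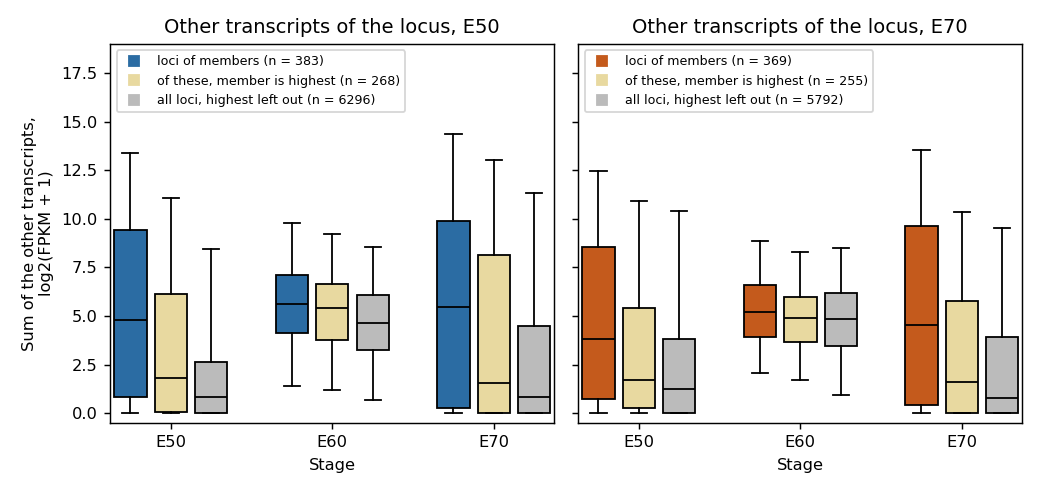
Sum of the other transcripts of a locus, as log2(FPKM + 1), at each stage. The first boxes are for loci of transcripts found only at E50 (left) or only at E70 (right), without these members. The next are for those of them whose highest transcript is a member, and the last for all loci with several transcripts. In both of these only the highest transcript is left out, so further members remain. Members of the other kind remain in all boxes. Boxes show quartiles and median and whiskers the 5th and 95th percentiles over loci, and at E50 and E70 the boxes of all member loci reach higher than those of all loci.

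The partners were also compared between the outer stages, with members of both kinds left out of the sums. At the E50 loci, the others were 2-fold or more higher at E70 than at E50 at 107 of 382 loci (28.01%) and lower at 84 (21.99%), beside 25.0% and 12.0% of all loci. Without the marked transcripts these shares were 24.6% and 21.4%, and where the highest transcript was a member they were 29.6% and 18.4%. The share higher was thus close to the background and the share lower above it. At the E70 loci, the others were 2-fold or more higher at E50 than at E70 at 59 of 368 loci (16.03%) and lower at 110 (29.9%), beside 20.6% and 17.4% of all loci, and where the highest transcript was a member the shares were 19.7% and 22.4%.

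With the member included, the locus sum mostly followed the member. At 452 of the 545 E50 loci (82.9%) the sum was 2-fold or more lower at E60 than at E50, beside 40.1% of all loci with a sum of at least 1 at E50, and at 429 (78.7%) it was lower at E70, beside 33.9%. At 55 E50 loci (10.1%) the sum was 2-fold or more higher at E60, beside 37.9% of all loci. At the E70 loci, 332 of 418 (79.4%) were lower at E60, beside 46.6% of all loci, 338 (80.9%) were lower at E50, beside 40.2%, and 36 (8.61%) were higher at E60, beside 33.05%. The member is part of these sums. At the 162 E50 loci and 49 E70 loci where it was alone, the fall was fixed by the selection. The shares describe how far the absence of a member carried over to its locus. Nothing is read from their distance to all loci.

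Members of both kinds met at 20 loci, which is 3.67% of the E50 loci and 4.78% of the E70 loci. Of all loci, 2.24% held an E70 member and 2.92% an E50 member. At each of the 20, 1 transcript was listed only at E50 and another only at E70. On scaffold 404 (7232811 to 7363735), TCONS_00700898 had 537 FPKM at E50 and TCONS_00701838 had 741142 at E70, and the 3 other transcripts summed to 2248, 38.3 and 501 FPKM. On scaffold 745 (17114 to 21332), TCONS_01052041 had 47610 FPKM at E50 and TCONS_01052613 had 232 at E70, with others at 0, 76.9 and 63.1. At E50 the member of the first locus was below the sum of its partners, and that of the second was its only listed transcript.

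On scaffold 671 (2053246 to 2117926), TCONS_00997870 had 28947 FPKM at E50 and TCONS_00998468 had 5.09 at E70, and both were small beside the 9 other transcripts at 177383, 136 and 308493 FPKM. On scaffold 1204 (263798 to 298726), TCONS_00107747 had 1895 FPKM at E50 and TCONS_00108271 had 11116 at E70, with others at 26.7, 72.9 and 341. Over the 20 loci, 6 of the E50 members and 0 of the E70 members carried the mark of too little data.

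None of the 996 members was among the 450 lincRNAs that the study listed as differing between stages, a list chosen on these samples that holds 0.987% of all transcripts, but some shared a locus with one. This was so at 32 E50 loci (5.87%, and 5.06% without the marked transcripts) and 34 E70 loci (8.13%), beside 4.98% and 5.63% of all loci with a transcript of at least 1 FPKM at these stages. The study also paired 12 lincRNAs with neighbouring genes, at 24 loci in all, and 4 of these loci held a member, beside 943 of all 18696 loci (5.04%).

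At 2 of the 4 loci the named gene was SAMD4B or its neighbour. SAMD4B encodes an RNA-binding protein with a SAM domain that represses target messages. TCONS_01102827, at the SAMD4B locus (scaffold 834, 223508 to 249987), was found only at E70 at 2.98 FPKM, whereas the SAMD4B transcript TCONS_01103378 had 1.21, 18.4 and 0.992 FPKM at E50, E60 and E70. At the adjoining locus (250159 to 263866), which holds the lincRNA TCONS_01102902 at 17916, 493 and 14287 FPKM, TCONS_01103146 was found only at E50 at 8120 FPKM and was marked as having too little data. The member beside the gene was thus a minor transcript, at 4.32% of its locus sum, and that beside the lincRNA held 30.9%.

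The other pairs concerned NFE2L2, which encodes the transcription factor NRF2 of the response to oxidative stress, and COG4, which encodes a subunit of a Golgi tethering complex. At the lincRNA locus next to NFE2L2 (scaffold 66, 7208993 to 7213190), TCONS_00985421 was found only at E70 at 6694 FPKM, which was 9.62% of a locus sum of 69612. At the lincRNA locus next to COG4 (scaffold 405, 10672754 to 10726270), TCONS_00702605 was found only at E50 at 1.11 FPKM, which was 0.251% of the locus sum. The loci of NFE2L2 and COG4 themselves held no member.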

How the data were processed

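Additional molar germs were pooled within a stage and their RNA was sequenced. The authors aligned the reads with TopHat to the WZSP genome, assembled and merged transcripts with Cufflinks and Cuffmerge, merged the mapped reads of replicates and deposited a Cuffdiff table of FPKM values, 1 per stage. The labels name Cufflinks 1.0.3 and the methods another version. The fold changes, p-values and q-values of the table are the authors' comparisons and were not used, whereas its status column was.

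The stage of a value was read from the stage name beside it, and E70 is the merged value of the authors. Where rows of a transcript gave different values for a stage (755 at E60, 434 at E70), the larger was kept. Starts were converted to count from 1. Loci are the intervals of the table. Changes were computed as log2(FPKM + 1), which understates those of low values. No p-value was computed. FPKM holds no depth, so no limit was set for a value of 0. Wilson intervals cover counting over transcripts or loci only, which are not independent.

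The members and lists were chosen with earlier results of these data known. The transcripts named follow a rule: in each group the 8 with the highest FPKM, the 6 highest alone at their locus, the 4 highest whose partners peak at E60, the 2 loci with the most members, members at loci of the study's named pairs, the 2 nearest the minimum on either side, and the 4 loci with both kinds of member that had the highest sums. The alternatives were other minimums, limits for 0, rules for differing rows, median scaling, locus sums, pseudocounts and folds. Leaving out transcripts marked as having too little data, leaving out members of both kinds, and the restriction to loci whose highest transcript is a member, were chosen after seeing the data. The selection and locus sums were tested on simulated data with planted members, of which 100% were recovered at E50 and at E70. Python 3.11.15, numpy 2.4.6, pandas 2.3.3, scipy 1.17.1 and matplotlib 3.10.9 were used.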

Additional observations from a re-analysis of the deposited data

How the results depend on the processing

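The table gives 1 value per stage, so depth, replicate spread and leaving out a replicate could not be examined. No paired analysis was possible because only E70 carries replicate numbers in the labels and the table merges them. With a minimum of 10 FPKM, 342 transcripts were found only at E50. With the rule applied to locus sums, 167 loci were found only at E50 and 55 only at E70. The share of E50 members alone at their locus was 35.4% with a minimum of 0.5 FPKM, 10.8% with 10 FPKM, 23.2% with the smaller value where rows differ and 38.3% without marked transcripts. In the same order, the share of E50 loci listed at 0 at the other stages was 37.2%, 12.0%, 25.4% and 40.2%, and the share of E50 members with a partner above 0 at E60 was 63.2%, 88.0%, 75.5% and 59.6%. At E70, with a minimum of 10 FPKM, these 3 shares were 5.78%, 7.55% and 92.7%. Loci whose other transcripts changed 2-fold between the stage and E60 numbered 332 for E50 and 319 for E70. After median scaling they numbered 318 (133 higher and 185 lower at E60) and 314 (123 and 191), and the main direction turned from higher to lower at E60 for both groups, although not at loci whose highest transcript is a member (126 higher and 84 lower, and 117 and 91). With all members left out of the sums, the last counts were 128 and 82 for E50 and 121 and 86 for E70. Without scaling and without marked transcripts, the E50 count was 217 of 253 loci, beside 332 of 383 with them and 319 of 369 at E70. Over all loci, with the highest transcript left out, 5324 of 6296 changed 2-fold for E50 and 4891 of 5792 for E70. Of 88 values obtained under alternatives, 56 moved by less than 1.5 times for counts or stayed within the 95% interval of the main value. Some of these could not move, since no member had differing rows and no E70 member was marked. The shares of the FPKM sum were counted as moved without this check, so the tally is no measure of robustness.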

Other observations

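The members were spread widely over the assembly. The E50 loci lay on 306 and the E70 loci on 247 of the 1290 scaffolds in the table, and 182 and 154 of these scaffolds held a single such locus. The most on one scaffold were 8 E50 loci among the 83 loci of scaffold 115 (9.64%) and 11 E70 loci among the 127 of scaffold 117 (8.66%), whereas E50 and E70 loci made up 2.92% and 2.24% of all 18696 loci. The nearest other locus was a median of 9042 bp from an E50 locus and 9977 bp from an E70 locus, beside 8822 bp for all loci. That neighbour held an E50 member for 3.21% of the E50 loci and an E70 member for 3.61% of the E70 loci, beside 2.85% and 2.24% for all loci. The neighbours of E50 loci had a median sum of 9.08 FPKM at E60 and those of E70 loci 12.7, beside 11.4 for all loci.

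Some stretches of the assembly, chosen after their values were seen, held several members close together. On scaffold 365, 3 consecutive loci with 1 transcript each, over 146840 bp, were all listed at a single stage. TCONS_00650393 (1717721 to 1719322) had 32001 FPKM at E50, TCONS_00651412 (1838927 to 1843549) had 90596 FPKM at E70 and TCONS_00650397 (1860076 to 1864560) had 19915 FPKM at E50. On scaffold 834, between 223508 and 330540, 4 of 7 loci held an E70 member. These were TCONS_01102827 at 2.98 FPKM in the SAMD4B locus, TCONS_01103563 at 280 FPKM, TCONS_01102855 at 1.11 FPKM and TCONS_01103700 at 707558 FPKM. The same stretch held 1 E50 member, TCONS_01103146.

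The E50 members together held 27.0% of the FPKM summed over all transcripts at E50, and the E70 members 24.0% of the sum at E70, although they made up 1.24% and 0.947% of the transcripts in the table. Of the transcripts of at least 1 FPKM at the stage, they made up 4.60% and 3.83%. The levels chose the members, and the sums include values beyond what the unit allows if the exon filled the span. These shares are therefore only a description. The transcripts found only at E60, 28.4% of the table and 41.7% of those of at least 1 FPKM at E60, held 31.9% of the sum at E60. The sums themselves were, in stage order, 44747113, 3117182 and 88974346 FPKM. TCONS_00642074 and TCONS_00451489 made up 70.4% of the E70 members' sum, and the E70 share was 15.4% without the first and 8.54% without both. Without the marked transcripts the shares were 22.7% at E50 and 26.9% at E70, and the E50 share was 24.8% without its highest member, TCONS_00051492. Without the highest transcript of each stage, which was not a member, the shares were 40.03% at E50 and 40.1% at E70. The transcripts to leave out were chosen after seeing the data.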
